A study of Mus musculus with 6 samples.

Results

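Imprinted genes were followed in cultured mouse ovary as a set of 42 genes chosen by name, of which 41 had a row among the 26329 genes of the authors' table. Snurf had no row. Of the members, 23 are known as paternally expressed and 19 as maternally expressed. Expression was measured by RNA sequencing in 3 libraries of ovaries cultured with the solvent DMSO (Control) and 3 of ovaries cultured with ISRIB in DMSO. ISRIB is a drug-like compound that acts on eIF2B, the exchange factor of translation initiation, and so counters the block on translation in the integrated stress response. The study's design names newborn ICR mice for its injected animals. For the cultured ovaries the strain, the age, the dose and the length of culture are not given here, nor is whether replicates came from separate animals or cultures. The p-values therefore measure the spread between these libraries, which may be technical. By its title, the study asked if blocking this response wakes primordial follicles, the dormant oocyte reserve, by way of mTOR.

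An imprinted gene is transcribed mainly from the copy inherited from 1 parent, as set by DNA methylation laid down in the egg or the sperm. Many lie in clusters where a control region decides which copy is used, and several clusters hold a protein gene and a long noncoding RNA used from opposite parental copies. As a broad tendency, paternally expressed genes promote growth and maternally expressed ones restrain it. In the ovary, germ cells have erased their imprints before birth and oocytes lay down maternal ones as they grow, while the somatic cells around them keep both sets. For several members (Ube3a, Grb10, Dcn, Ppp1r9a, Asb4, Copg2, Commd1) imprinting is known to be restricted to certain tissues. The values below are totals over both copies and all cells, so they say nothing of which copy was read. In whole ovary, fewer cells of a type and less RNA per cell cannot be told apart.

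Stretches where transcripts of some of these clusters start are shown next. Whether they hold the control regions was not examined. The following are the bases just upstream of the starts of Igf2r and Airn, of Dlk1 and Meg3, and the stretch from which Peg3 and Usp29 are transcribed in opposite directions, with each CpG, the dinucleotide that carries the methylation, in capitals (RefSeq starts, GRCm38, each written 5′ to 3′ on the strand of the first gene named, and free of annotated exons).
Igf2r, chr17:12769707-12769956, minus strand: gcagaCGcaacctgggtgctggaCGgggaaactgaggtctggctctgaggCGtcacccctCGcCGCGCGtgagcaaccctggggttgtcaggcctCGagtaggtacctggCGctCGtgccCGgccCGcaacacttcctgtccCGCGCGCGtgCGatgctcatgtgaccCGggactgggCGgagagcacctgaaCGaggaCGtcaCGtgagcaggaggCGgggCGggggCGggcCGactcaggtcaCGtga
Airn, chr17:12741061-12741310, plus strand: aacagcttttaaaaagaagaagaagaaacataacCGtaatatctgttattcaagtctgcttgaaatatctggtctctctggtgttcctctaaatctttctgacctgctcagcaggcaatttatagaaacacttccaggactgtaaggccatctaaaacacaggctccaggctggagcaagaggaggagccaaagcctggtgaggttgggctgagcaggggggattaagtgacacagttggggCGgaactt
Dlk1, chr12:109452573-109452822, plus strand: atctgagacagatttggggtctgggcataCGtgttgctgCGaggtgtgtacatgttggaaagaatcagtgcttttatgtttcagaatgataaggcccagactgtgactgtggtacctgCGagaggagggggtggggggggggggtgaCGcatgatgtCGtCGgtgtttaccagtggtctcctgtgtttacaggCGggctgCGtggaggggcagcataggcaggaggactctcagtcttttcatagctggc
Meg3, chr12:109540746-109540995, plus strand: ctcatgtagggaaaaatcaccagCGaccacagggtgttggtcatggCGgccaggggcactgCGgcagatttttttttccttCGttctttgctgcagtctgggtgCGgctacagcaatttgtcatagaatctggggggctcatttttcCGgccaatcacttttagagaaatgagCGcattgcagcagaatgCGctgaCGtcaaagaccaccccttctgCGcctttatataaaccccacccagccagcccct
Peg3 and Usp29, chr7:6730432-6730577, minus strand: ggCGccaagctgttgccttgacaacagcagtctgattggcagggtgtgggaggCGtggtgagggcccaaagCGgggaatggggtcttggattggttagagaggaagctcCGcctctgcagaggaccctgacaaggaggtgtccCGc
The Igf2r stretch held 27 CpG, that of Meg3 10, that of Dlk1 8, the shorter Peg3 and Usp29 stretch 5 and that of Airn 2. Over all RefSeq promoters the median in the 250 bases upstream was 6, and over those of the genes tested here 15. The motif TGCCGC, bound when methylated by the imprint-protecting factor ZFP57, was searched on both strands of these 250 bases. It was found in 8 of 49 promoters of the 34 members with an entry (16.3%), Meg3 among them, in 13.9% of the promoters of tested genes and in 8.68% of all promoters. The shares count promoters and not genes, and 2 of the 8 were Mest promoters that overlap almost wholly.

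No imprinted gene passed the test. The values were FPKM, reads divided by gene length and by library size, and log2(FPKM + 0.5) was compared with limma over the 12922 genes with a mean of at least 1 FPKM. Of the members, 33 reached that level and 8 did not, and 0 of the 33 had an adjusted p under 0.05 (0.0% of all genes tested). The lowest adjusted p among them was 0.0987. An unadjusted p under 0.05 was reached by 10 members, 3 higher and 7 lower in ISRIB, 30.3% of the 33 beside 16.4% of all genes tested (8.71% higher and 7.73% lower). Among them Dlk1, Rian and Mirg share 1 cluster and Peg12, Mkrn3 and Ube3a another, so they may not be independent. The shares were not corrected for the trend on gene length described below, and the excess was not tested. All ISRIB libraries lay above all Control libraries for 2 members (10.8% of all genes tested) and below them for 8 (12%). Together these 10 were 30.3% of the members, beside 22.8% of all genes tested. The 8 with lower values were the paternally expressed Dlk1, Peg3, Peg10, Peg12 and Mest and the maternally expressed Igf2r, Kcnq1 and Ube3a. The 2 with higher values were Rian, a maternally expressed noncoding RNA, and Zrsr1, a paternally expressed splicing-factor gene.

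Read apart, the paternally and the maternally expressed members each had a median near that of all genes. Of the 17 paternally expressed members tested, 9 were above 0 and 8 below, with a median log2 fold change of 0.02 that turned to −0.03 after rescaling to TPM and to −0.04 with a trend on gene length removed. Of the 16 maternally expressed members, 11 were above 0 and 5 below, with a median of 0.06 (0.02 and 0.08 under the same alternatives). Over all genes tested the median was 0.01, and 51.8% were above 0. Single members spread from −0.36 for Kcnq1 to 0.39 for Nap1l5. The 4 maternally expressed noncoding RNAs tested (H19, Meg3, Rian and Mirg) had values of 0.14 to 0.32, with a median of 0.19, or 0.14 after TPM rescaling. H19 had 0.00 after quantile normalization. Meg3, Rian and Mirg lie on the same strand of 1 cluster, so their values may not be independent. The 12 maternally expressed protein genes had 7 above 0 and 5 below and a median of 0.02, or −0.03 after TPM rescaling. The difference between these groups of genes was not tested.

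**Figure D1:**
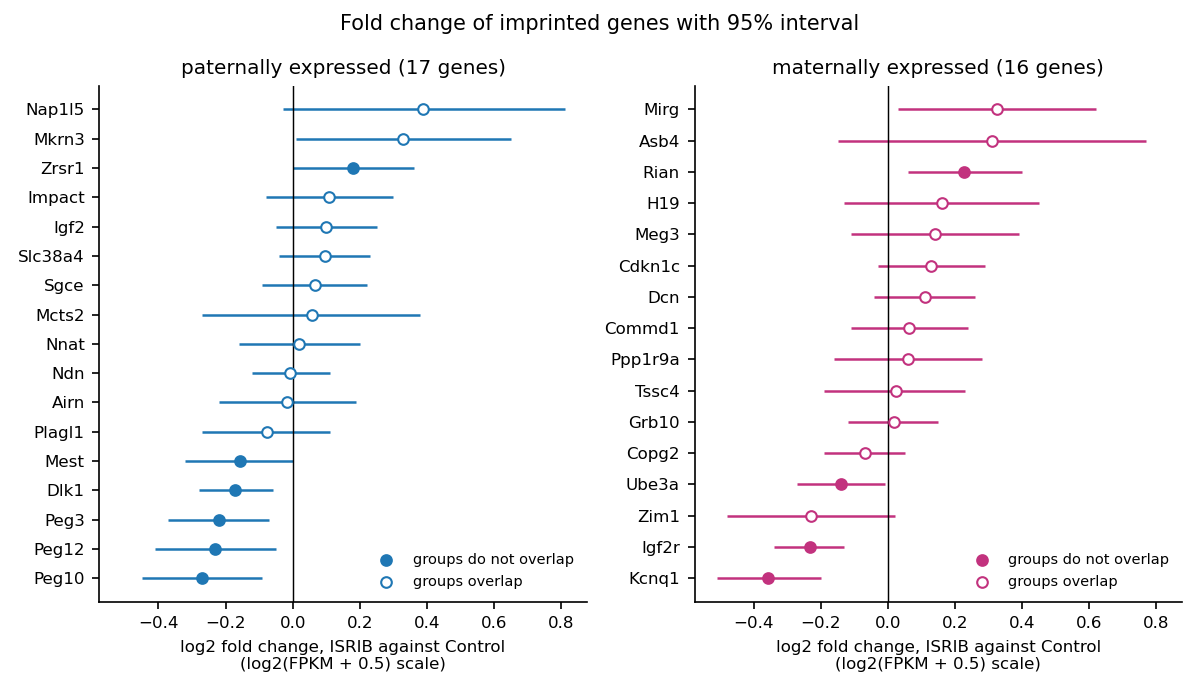
Log2 fold change (x axis, ISRIB against Control, log2(FPKM + 0.5) scale) of the 17 paternally and 16 maternally expressed genes tested, with lines for the 95% interval of limma and filled points for genes whose groups do not overlap. The lowest is Kcnq1 at −0.36 and the highest Nap1l5 at 0.39, whose interval includes 0.

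Igf2r, the receptor that takes the growth factor IGF2 into the lysosome for breakdown (chr17:12682406-12769664, minus strand), had the smallest p of the members after Kcnq1. It measured 33.1, 33.1 and 33.9 FPKM in Control and 29.5, 28.3 and 27.3 in ISRIB. Every ISRIB library was below every Control library, and the gap was wider than the spread within either group. The means were 33.4 ± 0.480 and 28.4 ± 1.13 FPKM (SD, n = 3 each), and the difference on the log2 scale was −0.23 (SE 0.0456, limma adjusted p = 0.0995). With limma's voom on whole reads worked back from the FPKM, Igf2r had an adjusted p = 0.0447. No other member was among the 120 genes past that test (0.929% of those tested). Igf2r is long, with an implied length of 9039 bases, and longer genes had lower fold changes over the whole table (Spearman rho −0.361 across genes, which are not independent replicates). With a loess trend on length removed from each library its log2 fold change was −0.17. In voom with that correction its adjusted p was 0.167, and the 24 genes that passed (0.186%) held no member.

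Airn, the paternally expressed antisense RNA that silences Igf2r on the same chromosome copy (chr17:12741311-12860136, plus strand), measured 3.98, 3.48 and 3.23 FPKM in Control and 3.58, 3.48 and 3.45 in ISRIB. The ISRIB values lay inside the Control range, with a log2 fold change of −0.02 (95% interval −0.22 to 0.19). The log2 ratio of Igf2r to Airn was 2.91, 3.08 and 3.21 in Control and 2.88, 2.85 and 2.81 in ISRIB. This was the only one of 8 neighbouring pairs tested whose groups did not overlap. Of 10 pairs listed, the rest had a gene below the level tested. The difference for Igf2r and Airn was −0.21, with an exact two-sided permutation p of 0.1, the smallest that 3 libraries against 3 allow. After adjustment over the 8 pairs it was 0.533. The ratios were not corrected for gene length. With the length trend removed, the log2 fold change of Igf2r was −0.17 and that of Airn −0.05.

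**Figure D2:**
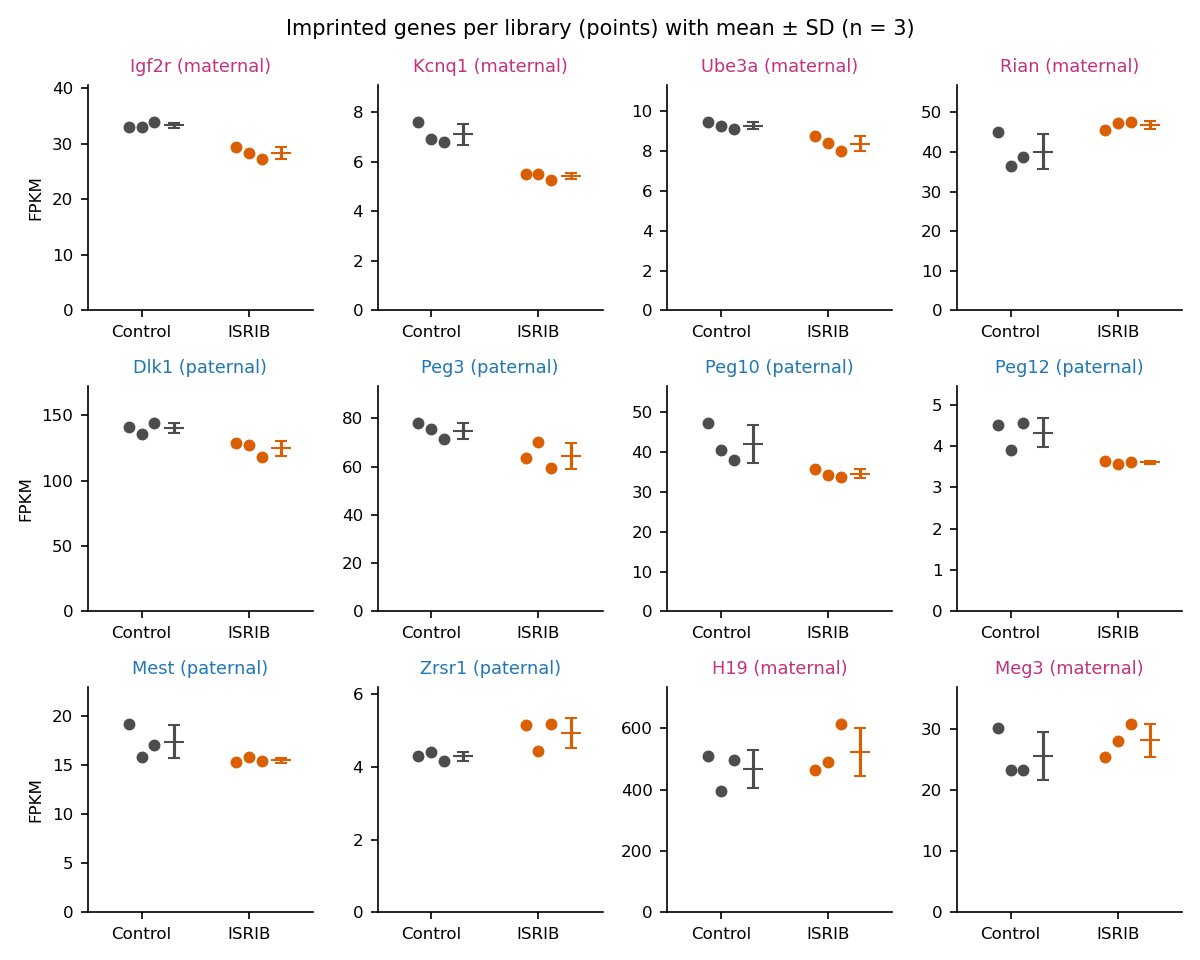
FPKM (y axis, from 0) of 12 imprinted genes in each of 3 Control (grey) and 3 ISRIB (orange) libraries, with mean ± SD beside the points; the parental copy each gene is known to be expressed from is in the title. Igf2r and Kcnq1 show wide gaps between the groups, Mest a narrow one, and H19 and Meg3 overlap.

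Kcnq1, a potassium channel subunit of the distal chromosome 7 cluster (chr7:143106362-143427042, plus strand), had the lowest fold change of all members. It measured 7.60, 6.92 and 6.79 FPKM in Control and 5.51, 5.50 and 5.28 in ISRIB. The highest ISRIB library stood well below the lowest Control library. The group means of 7.10 ± 0.439 and 5.43 ± 0.133 FPKM gave a fold change of −0.36 in log2 (SE 0.0671, limma adjusted p = 0.0987, voom adjusted p = 0.0635). Its length is close to the median of all genes tested, and its log2 fold change was −0.35 with the length trend removed. Kcnq1ot1, the antisense RNA that silences this cluster on the paternal copy, was too low to be tested, at 0.111 to 0.172 FPKM. Its 355 to 517 reads per library were spread over a gene of 84464 bases. Kcnq1 shares 2.96% of its exonic bases with Kcnq1ot1 on the other strand, and whether the counting used strand is not given.

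The other genes of that cluster were at very different levels. Cdkn1c, the cell cycle inhibitor p57 (chr7:143458339-143461050, minus strand), was the most abundant, at 47.6, 43.6 and 41.8 FPKM in Control and 48.4, 44.9 and 52.3 in ISRIB. Its groups overlapped, with a log2 fold change of 0.13 (95% interval −0.03 to 0.29). Tssc4, known as a factor of spliceosome assembly, was at 7.12 to 8.90 FPKM with a log2 fold change of 0.02 (−0.03 after TPM rescaling), and shares 11.9% of its exonic bases with Trpm5 on the other strand. The placental regulators Ascl2 (0.388 to 0.782 FPKM) and Phlda2 (0.0240 to 0.203) and the transporter gene Slc22a18 (0.105 to 0.334) were below the level tested. Phlda2 rested on 1 to 8 reads per library.

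In the Dlk1-Dio3 cluster of chromosome 12, Dlk1 lay below 0 and the maternally expressed noncoding RNAs above it. Dlk1 was the only paternally expressed member tested there. Dio3, a protein gene of this cluster read outside the members, was above 0 too, with overlapping groups (log2 fold change 0.17, limma adjusted p = 0.576). Dlk1, a membrane protein related to Notch ligands that is found on immature cells (chr12:109452823-109463336, plus strand), measured 141, 136 and 144 FPKM in Control and 129, 127 and 118 in ISRIB. All ISRIB libraries were below all Control libraries. Dlk1 averaged 140 ± 3.61 and 125 ± 5.75 FPKM. Its log2 fold change was −0.17 (SE 0.0463, limma adjusted p = 0.145), and −0.14 with the length trend removed. Dlk1 ranked 313 of the 12922 genes by mean FPKM.

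Rian, which hosts small nucleolar RNAs and microRNAs (chr12:109603940-109661716, plus strand), measured 44.9, 36.5 and 38.7 FPKM in Control and 45.5, 47.3 and 47.5 in ISRIB. The lowest ISRIB library was only just above the first Control library. Its log2 fold change was 0.23 (SE 0.0741, adjusted p = 0.205), the same with the length trend removed (by its implied length). Mirg, a host of many microRNAs (chr12:109729764-109749460, plus strand), measured 4.34, 3.73 and 5.24 FPKM in Control and 4.90, 6.25 and 5.81 in ISRIB. One Control library lay above the first ISRIB library, and the log2 fold change was 0.32 (SE 0.128, adjusted p = 0.270). Meg3, the noncoding RNA at the head of this series (chr12:109541001-109571726, plus strand), measured 30.2, 23.3 and 23.3 FPKM in Control and 25.5, 28.1 and 30.8 in ISRIB. Control replicate 1 stood with the higher ISRIB libraries, and the log2 fold change was 0.14 (95% interval −0.11 to 0.39), 0.26 without that library and 0.08 without any 1 of Control replicates 2 and 3 and ISRIB replicate 3. The log2 ratio of Meg3 to Dlk1 was −2.44 ± 0.208 in Control and −2.13 ± 0.197 in ISRIB, with overlapping groups (difference 0.31, exact permutation p = 0.2, adjusted p = 0.533). Rtl1, a retrotransposon-derived protein gene needed in the placenta, had 19 to 43 reads per library and was not tested.

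These noncoding RNAs and H19 contain microRNAs. The mature microRNAs were not measured, and their sequences are shown to say what the hosts hold. RefSeq places 26 mature microRNAs inside Mirg, 6 inside Rian, 3 inside Meg3 and 2 inside H19 (GRCm38). Capitals mark the seed, bases 2 to 8, and of those printed only miR-453 and miR-496a-5p share one.
H19, mmu-miR-675-5p, chr7:142577112-142577133, minus strand: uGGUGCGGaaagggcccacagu
H19, mmu-miR-675-3p, chr7:142577078-142577099, minus strand: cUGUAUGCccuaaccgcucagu
Meg3, mmu-miR-770-3p, chr12:109563744-109563765, plus strand: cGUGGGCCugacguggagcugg
Rian, mmu-miR-370-3p, chr12:109618305-109618326, plus strand: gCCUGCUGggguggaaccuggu
Mirg, mmu-miR-134-5p, chr12:109734145-109734166, plus strand: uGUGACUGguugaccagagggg
Mirg, mmu-miR-453, chr12:109735669-109735692, plus strand: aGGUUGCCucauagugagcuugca
Mirg, mmu-miR-496a-5p, chr12:109739132-109739152, plus strand: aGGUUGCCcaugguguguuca
Mirg, mmu-miR-410-3p, chr12:109743764-109743784, plus strand: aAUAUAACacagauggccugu

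H19 was the most abundant member, ranking 71 of the 12922 genes tested. This noncoding RNA, which is made from the maternal copy and restrains growth (chr7:142575529-142578143, minus strand), measured 511, 396 and 496 FPKM in Control and 465, 492 and 614 in ISRIB. The groups overlapped, and the log2 fold change was 0.16 (95% interval −0.13 to 0.45), and 0.04 without Control replicate 2 or without ISRIB replicate 3, and 0.00 after quantile normalization. Its paternally expressed neighbour Igf2, the fetal growth factor (chr7:142650766-142666816, minus strand), measured 61.0, 53.3 and 53.8 FPKM in Control and 62.3, 56.2 and 61.7 in ISRIB. Control replicate 1 was above the lowest ISRIB library, and the log2 fold change was 0.10 (95% interval −0.05 to 0.25). The log2 ratio of H19 to Igf2 was 3.04 ± 0.157 in Control and 3.10 ± 0.208 in ISRIB, a difference of 0.06 (exact permutation p = 0.7, adjusted p = 0.933).

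Peg3, a large zinc finger protein gene of proximal chromosome 7 (chr7:6703892-6730431, minus strand), measured 78.0, 75.4 and 71.4 FPKM in Control and 63.4, 70.1 and 59.5 in ISRIB. The groups did not overlap, although ISRIB replicate 2 came near the lowest Control library. Peg3 averaged 74.9 ± 3.31 and 64.3 ± 5.36 FPKM, with −0.22 as log2 fold change (SE 0.0652, adjusted p = 0.173). Peg3 has an implied length of 11623 bases, and its log2 fold change was −0.14 with the length trend removed (adjusted p = 0.336). Its maternally expressed neighbour Zim1, also a zinc finger gene, measured 11.2, 10.8 and 10.7 FPKM in Control and 8.76, 11.1 and 8.03 in ISRIB. It was low in the same 2 ISRIB libraries as Peg3, and the log2 ratio of Zim1 to Peg3 was −2.73 in both groups (difference −0.01, exact permutation p = 1.0). Usp29, the deubiquitinase gene that starts from the stretch shown above, was not tested, at 0.195 to 0.330 FPKM. The stretch thus lies between an abundant gene and one with 60 to 101 reads per library.

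Peg10, a retrotransposon-derived gene of chromosome 6 needed for the placenta (chr6:4747306-4760517, plus strand), measured 47.2, 40.5 and 38.0 FPKM in Control and 35.8, 34.1 and 33.6 in ISRIB. All ISRIB libraries lay below Control, whose own values were spread more widely. The log2 fold change was −0.27 (SE 0.0772, adjusted p = 0.160), −0.22 with the length trend removed and −0.18 without Control replicate 1. Sgce, the sarcoglycan gene that starts next to Peg10 and is also paternally expressed, measured 33.0, 29.9 and 33.6 FPKM in Control and 31.1, 34.0 and 35.9 in ISRIB. Its groups overlapped, with a log2 fold change of 0.07 (95% interval −0.09 to 0.22), so these head-to-head neighbours had values on opposite sides of 0; the difference between them was not tested. The maternally expressed genes of the cluster, Ppp1r9a, an actin-binding scaffold, and Asb4, an ankyrin repeat protein, had low FPKM. For Ppp1r9a this came with 2483 to 3066 reads per library. They were divided by an implied length of 24422 bases, where GENCODE M21 gives 14531 exonic bases. Asb4 measured 1.90, 1.84 and 2.14 FPKM in Control and 3.38, 1.66 and 2.88 in ISRIB, with ISRIB replicate 2 below all Control libraries (log2 fold change 0.31, 95% interval −0.15 to 0.77, 0.56 without that library and 0.14 without ISRIB replicate 1). Ppp1r9a measured 3.2, 2.89 and 3.04 FPKM in Control and 2.83, 3.28 and 3.52 in ISRIB, with overlapping groups (log2 fold change 0.06). The log2 ratio of Asb4 to Peg10 differed by 0.58 (exact permutation p = 0.2, adjusted p = 0.533) and that of Ppp1r9a to Sgce by −0.00 (p = 0.9).

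In the cluster linked to the Prader-Willi and Angelman syndromes in humans, the paternally expressed genes ran from near 0 reads to levels among the highest of the set. Peg12, a relative of the FRAT genes that act in Wnt signalling (chr7:62461871-62464510, minus strand), measured 4.50, 3.91 and 4.55 FPKM in Control and 3.64, 3.57 and 3.60 in ISRIB. The ISRIB values were nearly equal and all below Control. The log2 fold change was −0.23 (SE 0.0799, adjusted p = 0.224), and −0.25 with the length trend removed. Mkrn3, a ring finger gene that holds back puberty in humans, was low, at 1.28, 1.48 and 1.03 FPKM in Control and 1.45, 1.83 and 1.85 in ISRIB. Its groups overlapped (0.33 on the log2 scale, SE 0.137, adjusted p = 0.289). Ndn, a growth suppressor of the MAGE family, had the highest level of the cluster, at 69.3, 65.8 and 67.3 FPKM in Control and 67.0, 63.5 and 70.8 in ISRIB, with a log2 fold change of −0.01 (95% interval −0.12 to 0.11). Its relative Magel2 was at 0.128 to 0.443 FPKM and was not tested. Snrpn, a splicing protein gene, had 0 to 10 reads per library. In the annotation the exons of Snurf, which is read from the same transcript and had no row, lie wholly within those of Snrpn. Snrpn also shares 27.3% of its exonic bases with Gm38393 on the same strand. How reads in shared exons were counted was not examined, so the level of Snrpn is uncertain.

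Ube3a, the ubiquitin ligase that is silenced on the paternal copy in neurons (chr7:59228750-59311536, plus strand), measured 9.44, 9.25 and 9.11 FPKM in Control and 8.74, 8.37 and 7.98 in ISRIB. All ISRIB libraries were below Control, and the log2 fold change was −0.14 (SE 0.0577, adjusted p = 0.285). Ube3a shares 8.74% of its exonic bases with the antisense Snhg14. It has an implied length of 16716 bases, and its log2 fold change was −0.05 with the length trend removed.

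Mest, a hydrolase-like protein made in mesoderm (chr6:30723547-30748465, plus strand), measured 19.2, 15.9 and 17.1 FPKM in Control and 15.3, 15.8 and 15.4 in ISRIB. The groups were separated by less than the spread within Control. The log2 fold change was −0.16 (SE 0.0703, adjusted p = 0.314), −0.06 with the length trend removed (by its implied length) and −0.09 without Control replicate 1. Its FPKM had been divided by an implied length of 32244 bases, where GENCODE M21 gives it 3945 exonic bases, so its level cannot be ranked against other genes. It had 17715 to 21365 reads per library. The coat protein gene Copg2, which runs towards Mest and shares 17.8% of its exonic bases with it on the other strand, measured 11.9, 12.7 and 12.6 FPKM in Control and 11.6, 11.7 and 12.2 in ISRIB (log2 fold change −0.07, 95% interval −0.19 to 0.05). The log2 ratio of Copg2 to Mest differed by 0.09 (exact permutation p = 0.6).

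Zrsr1, a retrogene of a splicing factor that lies inside Commd1 (chr11:22972005-22976496, plus strand), measured 4.30, 4.41 and 4.16 FPKM in Control and 5.17, 4.45 and 5.18 in ISRIB. ISRIB replicate 2 was just above the highest Control library and the other 2 well above it. The log2 fold change was 0.18 (SE 0.0796, adjusted p = 0.311). Its host Commd1, which acts in copper handling, measured 8.77, 9.92 and 10.5 FPKM in Control and 9.98, 9.78 and 10.8 in ISRIB (log2 fold change 0.06, 95% interval −0.11 to 0.24). The genes share 9.17% of the exonic bases of Zrsr1 on opposite strands, and their log2 ratio differed by −0.12 (exact permutation p = 0.4).

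**Figure D3:**
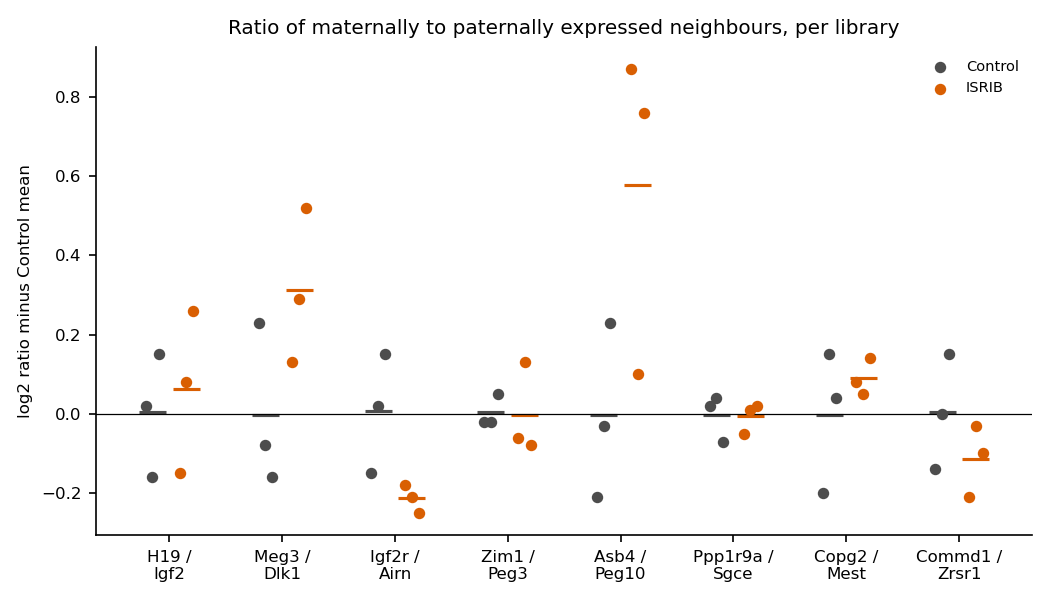
Log2 ratio of the maternally to the paternally expressed gene of 8 neighbouring pairs in each library, less the Control mean (y axis), with short lines for group means. The ratios are not corrected for gene length. In Igf2r and Airn alone do the groups not overlap; the difference of 0.58 for Asb4 and Peg10 rests on 2 of 3 ISRIB libraries.

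Among the genes that stand alone, the abundant ones differed little. Dcn, the matrix proteoglycan decorin and a gene of stromal cells, was second only to H19 by FPKM. That place rests on an implied length of 2130 bases, where GENCODE M21 gives Dcn 5838 exonic bases. Dcn measured 224, 242 and 246 FPKM in Control and 244, 247 and 279 in ISRIB (log2 fold change 0.11, 95% interval −0.04 to 0.26). Plagl1, a zinc finger factor known to regulate other imprinted genes, measured 65.3, 78.8 and 76.9 FPKM in Control and 64.2, 70.6 and 74.6 in ISRIB (log2 fold change −0.08, 95% interval −0.27 to 0.11). Grb10, an adaptor that damps insulin and IGF receptor signalling, measured 48.3, 45.4 and 51.4 FPKM in Control and 50.3, 46.2 and 50.4 in ISRIB (0.02, 95% interval −0.12 to 0.15, and −0.03 after TPM rescaling). The groups overlapped for all of these. Nnat, Slc38a4, Impact and the retrogene Mcts2 had log2 fold changes of 0.02, 0.10, 0.11 and 0.06. That of Nnat was −0.03 after TPM rescaling and −0.04 with the length trend removed, and that of Mcts2 −0.03 with the length trend removed and −0.10 to 0.16 when single libraries were left out. Impact, whose protein restrains GCN2, an eIF2-alpha kinase of the integrated stress response, measured 5.29, 4.93 and 4.54 FPKM in Control and 5.0, 5.74 and 5.28 in ISRIB, with overlapping groups. Its implied length of 13115 bases is well above the 5129 exonic bases of GENCODE M21, so its level cannot be ranked either. Nap1l5, a retrogene related to nucleosome assembly factors, had the highest fold change of the members on this scale (in voom Mkrn3 had 0.45 and Nap1l5 0.44), from 3.04, 2.53 and 4.57 FPKM in Control and 3.84, 4.74 and 4.87 in ISRIB. Its groups overlapped, and the log2 fold change was 0.39 (95% interval −0.03 to 0.81), and 0.23 to 0.60 when single libraries were left out.

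Members at either end of the length range moved when the trend on gene length was removed. Of the long ones, Ube3a stood at −0.05 and Mest at −0.06, the latter by an implied length far above its annotated exons, and Peg3, Igf2r and Peg10 stood at −0.14, −0.17 and −0.22. Mcts2, the shortest member tested, had −0.03 in place of 0.06, and Mirg 0.26 in place of 0.32. Those near the median by implied length, Kcnq1, Rian and Zrsr1, had −0.35, 0.23 and 0.20, and Meg3, also long, had 0.22 in place of 0.14. The implied lengths of Rian (3628 bases) and Mirg (1316) are well below their 18234 and 7292 exonic bases in GENCODE M21. Their places in the length range and their corrected values rest on the implied lengths. What underlies the trend was not tested.

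**Figure D4:**
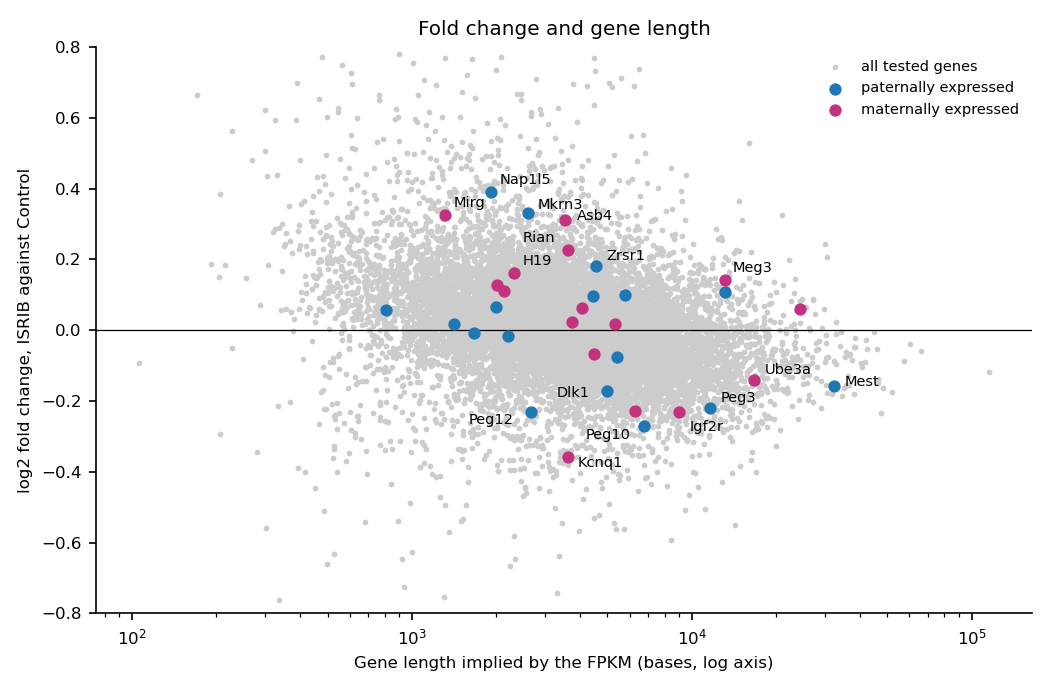
Log2 fold change (y axis) against the gene length implied by the FPKM (x axis, bases, log scale) for all 12922 genes tested (grey) and the imprinted genes in colour; genes beyond ±0.8 are not drawn. Values go down with length over all genes, and Ube3a, Mest, Peg3 and Igf2r lie on the long side, Mest by an implied length above its annotated exons.

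Other imprinted genes and factors that set or keep imprints were read from lists outside the members. Of 40 other imprinted genes 24 were tested, 9 above 0 and 15 below, with a median of −0.03 and 0 past the adjusted test. The groups did not overlap for 7 of them, 29.2% of that list beside 22.8% of all genes. Gnas, the stimulatory G protein alpha subunit, measured 193, 189 and 193 FPKM in Control and 207, 213 and 218 in ISRIB with 0.15 as log2 fold change (adjusted p = 0.126). The chloride channel gene Ano1, Trappc9, which serves vesicle traffic, and the lipid-binding Osbpl5 had all ISRIB libraries below Control, with log2 fold changes of −0.18, −0.20 and −0.22 (adjusted p = 0.134, 0.176 and 0.187). Of 20 factors 18 were tested, 9 above 0 and 9 below, and the groups did not overlap for 6 (33.3% beside 22.8% of all genes), among them Dnmt3b and Arid4a and the 4 with the smallest p. Zfp57, whose protein guards methylated imprints, measured 9.49, 9.91 and 9.57 FPKM in Control and 10.4, 11.7 and 11.1 in ISRIB, with 0.19 as log2 fold change (adjusted p = 0.203). Khdc3, a maternal-effect gene of the oocyte, had 0.22 (adjusted p = 0.228). Smchd1, a chromatin protein that silences some imprinted clusters, had −0.18 (adjusted p = 0.176), and the DNA methyltransferase gene Dnmt3a had −0.10 (adjusted p = 0.350), or −0.01 with the length trend removed.

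The libraries held 34474821 to 38002135 recovered reads, and members took 0.639% to 0.700% of them. Of 10 genes that mark ovary, 9 had a mean of at least 1 FPKM and none was at 0; Fshr, the receptor for follicle-stimulating hormone, was at 0.314 to 0.640. Of 5 markers of endothelium, none at 0, 4 had all ISRIB libraries below Control, beside 12% of all genes tested. Their summed level, over all 5, was 101 to 108 FPKM in Control and 81.8 to 91.0 in ISRIB. All ISRIB libraries were also below Control for 2 of 7 stroma markers. The same held for 1 of 5 markers of pericytes and smooth muscle (Pdgfrb) and 1 of 4 immune markers tested (Csf1r). In the other direction, all ISRIB libraries were above Control for 1 of 10 oocyte markers (Zp3), beside 10.8% of all genes tested. By log2 fold change 7 oocyte markers were above 0 and 3 below, and of 6 granulosa markers tested 4 were above and 2 below. The sums of oocyte markers (1260 to 1440 and 1400 to 1540 FPKM), granulosa markers (420 to 518 and 470 to 611) and stroma markers (1350 to 1430 and 1300 to 1450) overlapped. The part of these cell types in the values of the imprinted genes was not tested. Skeletal muscle markers summed to at most 0.429 FPKM.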

How the data were processed

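Ovary RNA went through a column-based tissue kit and a universal RNA-seq library kit, as the labels' protocols state. Values are FPKM per gene in each library, as deposited by the authors. The submitters' processing notes list DESeq2, fastp, HISAT2, HTSeq, R 3.2.0 and mm10, with no order. Which annotation and strand setting were used is not given in the sources used here. Groups were taken from the sample titles. Log2(FPKM + 0.5) of the 12922 genes with a mean of at least 1 FPKM went into limma 3.58.1 (R 4.3.3; 2 groups, trended empirical Bayes, two-sided) with p adjusted over all genes by Benjamini-Hochberg and a threshold of 0.05; fold changes on this scale understate those of low genes. Whole reads were recovered for 100.0% of genes (tolerance 0.01 read), which gave depth, implied gene length (from the recovered totals) and limma's voom as an alternative. Gene spans and exons came from GENCODE M21 and sequences from RefSeq, both GRCm38, the build named mm10. All 41 symbols matched GENCODE and 34 members had a RefSeq promoter. Python 3.11.15, pandas 2.3.3 and matplotlib 3.10.9 made tables and figures. Pair ratios used exact permutation tests. Values per library are given for members whose groups do not overlap, with an unadjusted p under 0.05, among the 12 highest means or in a tested pair; Nap1l5 and Impact were added after their values were seen. Members and lists were chosen with earlier results of these data known. Alternatives were pseudocounts of 0.1 and 1, no filter, a mean of at least 5 FPKM, quantile normalization, median-of-ratios scaling, rescaling to TPM, a replicate block, each library left out, voom, and a loess trend on length (span 0.5) removed; voom with that correction was added after the data were seen.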

Additional observations from a re-analysis of the deposited data

How the results depend on the processing

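No imprinted gene passed under any setting except Igf2r in voom on recovered reads (log2 fold change −0.24, adjusted p = 0.0447). Over all genes, limma called 0 (2125 at an unadjusted p under 0.05), 8 with a mean of at least 5 FPKM, 9 with the length trend removed, 120 in voom and 24 in voom with the length trend removed, and 0 under the other scalings, pseudocounts and filter and when any single library was left out. With the replicate number as a block 11 genes passed and 0 members. The labels do not say that the numbers pair the libraries. The same-numbered libraries had correlations of −0.19, −0.0909 and 0.192 in their deviations from the group means. Of the numbers, only 3 marked libraries that correlated best with each other. Deviations within a group of 3 depend on each other, so these correlations cannot decide whether the libraries were paired. The median of the paternally expressed members was −0.03 after TPM rescaling, −0.04 with the length trend removed, −0.04 in voom with that correction and −0.02 to 0.06 when single libraries were left out. That of the maternally expressed members was 0.03 to 0.10 when single libraries were left out. TPM rescaling set the median of all genes to −0.05. Of the 27 members that the rule names, 23 had 1 direction under every alternative that gave a value (17, or 16 for the 6 below a mean of 5 FPKM). Grb10 had −0.03 after TPM rescaling, −0.01 after quantile normalization and −0.03 to 0.06 without single libraries. Airn had −0.08 to 0.06 without single libraries, Ndn −0.05 to 0.03 and Commd1 −0.01 to 0.12. The number of pairs whose groups did not overlap was 1 to 3 without single libraries. The difference for Ppp1r9a and Sgce was 0.00 with a pseudocount of 0.1 and −0.04 to 0.02 without single libraries, and that for Zim1 and Peg3 0.00 with a pseudocount of 1 and −0.07 to 0.03. Those for H19 and Igf2 and for Copg2 and Mest were −0.04 to 0.17 and −0.01 to 0.17. For changes of direction and of calls the cause was not tested. Members with few reads, such as Snrpn and Phlda2 with at most 10 per library, have imprecise values. Why their reads were few was not tested. Kcnq1ot1 was below 1 FPKM by its length.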

Other observations

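Summed over members, the paternally expressed genes were at 557.7 to 579.5 FPKM in the Control libraries and 535.3 to 539.4 in the ISRIB libraries, without overlap, while the maternally expressed genes were at 886.4 to 1007 and 973.4 to 1166 FPKM. H19 alone took 0.0917% to 0.142% of all recovered reads. These sums are led by the few most abundant genes and were not tested. The paternal sum holds Dlk1, Peg3 and Peg10, each lower in ISRIB without overlap as given above. With the length trend removed, the log2 fold changes of these genes were −0.14, −0.14 and −0.22. The sums were not corrected for length. Mest and Impact entered it at FPKM whose level cannot be ranked against other genes. The median log2 fold change of the paternally expressed members was 0.02.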
